A study of Mus musculus with 24 samples.

Results

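The 8 mouse pancreatic tumours with the strongest interferon signature were compared with the 8 tumours with the weakest, out of 24 tumours profiled. The ranking used 8 interferon-stimulated genes, Ifit1, Ifit3, Isg15, Irf7, Oasl1, Oasl2, Rsad2 and Usp18. A tumour's score averaged, over these genes, how far its log2 value lay from that gene's mean in all 24. The 8 highest scores made the interferon-high class, the 8 lowest the interferon-low class, and the 8 tumours between them entered neither. The classes were thus chosen by values measured on these same arrays, so the levels of the 8 ranking genes are a description with no test. The other 19497 genes were compared between the classes with the treatment group in the model.

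The series concerns pancreatic ductal adenocarcinoma and blocks a growth factor receptor and autophagy, alone and together. It holds 4 groups of 6 mouse tumours: a control given vector, BMS754807 alone, hydroxychloroquine alone, and BMS754807 with hydroxychloroquine (the combination). BMS754807 inhibits the kinases of the IGF1 and insulin receptors, and hydroxychloroquine raises lysosomal pH and so stops the last step of autophagy. RNA of each tumour was hybridised to a Clariom S array, and array medians lay between 6.79 and 7.03 on the deposited log2 scale. The labels give no dose, duration, strain, age or tumour site, nor do they name the animals behind the 6 tumours of a group, so every error and p describes the spread between these samples, which may in part be technical. Keratins of simple and ductal epithelium were high in every tumour, with Krt19 between 15.15 and 15.94 and Krt7 between 16.35 and 17.18. Both lay above the upper quartile of every array (10.71 to 10.81), which marks epithelial content and was no test of the ductal label. Epcam, an adhesion protein of epithelial cells, varied more, from 10.68 to 14.92.

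Interferons are secreted proteins that warn cells of infection or of nucleic acids in the wrong place. Type I interferons bind the Ifnar1 and Ifnar2 receptor, whose kinases activate Stat2, and this joins Irf9 to switch on genes carrying an interferon-stimulated response element (ISRE) in their promoters. Interferon gamma acts through a separate receptor and drives guanylate-binding proteins, antigen presentation genes and the chemokines Cxcl9 and Cxcl10. In tumours such a signature can come from cancer cells or from stromal and immune cells, and a bulk array cannot separate these sources.

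The ISRE is shown because it is the element through which these genes are known to respond. In RefSeq promoter windows of build GRCm38.p6, the core was searched as GAAA, any 2 bases, and GAAA again, on both strands and with overlapping matches counted, in the 250 bases before each gene's start. It was found in 3.46% of all 27025 genes with a window, and in 4 of the 7 ranking genes with one. Usp18 had no window, and Irf7, Oasl1 and Oasl2 had no match, which says only that these letters were not in this window. The stretches of those 4 ranking genes are printed 5′ to 3′ on the gene's strand, with the matches in capitals:
Ifit1 (chr19:34640760-34640838, plus strand): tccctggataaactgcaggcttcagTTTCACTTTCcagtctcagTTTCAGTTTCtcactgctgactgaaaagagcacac
Ifit3 (chr19:34583348-34583441, plus strand): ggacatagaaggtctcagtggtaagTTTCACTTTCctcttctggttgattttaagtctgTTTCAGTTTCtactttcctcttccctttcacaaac
Isg15 (chr4:156200850-156200921, minus strand): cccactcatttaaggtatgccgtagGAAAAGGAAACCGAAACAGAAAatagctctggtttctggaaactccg
Rsad2 (chr12:26456538-26456597, minus strand): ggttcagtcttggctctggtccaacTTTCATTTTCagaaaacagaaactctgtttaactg

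The matches are given as letters, and no binding was measured. Isg15 held 3 overlapping matches beginning 78 bases before its start, Ifit1 held 2 from 104 bases before it, Ifit3 held 2 from 156 bases before it, and Rsad2 held 1 at 120 bases. The next set shows genes outside the ranking that are named below. They were picked from those with a match, so they do not show how common the core is:
Cxcl10 (chr5:92349068-92349127, minus strand): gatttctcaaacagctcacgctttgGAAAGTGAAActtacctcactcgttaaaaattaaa
Stat2 (chr10:128270251-128270310, plus strand): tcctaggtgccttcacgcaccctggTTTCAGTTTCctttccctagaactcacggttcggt
Gbp3 (chr3:142559974-142560039, plus strand): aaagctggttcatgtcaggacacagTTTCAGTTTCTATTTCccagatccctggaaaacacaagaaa
Gbp7 (chr3:142530258-142530317, plus strand): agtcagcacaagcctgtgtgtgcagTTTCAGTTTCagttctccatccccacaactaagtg
Tgtp2 (chr11:49064248-49064307, minus strand): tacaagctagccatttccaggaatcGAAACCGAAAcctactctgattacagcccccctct

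By gene list, the core was present in 7 of the 7 guanylate-binding protein and immunity-related GTPase genes with a window, in 6 of 7 HIN-200 genes, in 13 of 40 other antiviral genes and in 0 of 5 MHC class II genes. It was also present in 9 of 17 interferon genes, which did not lie higher in the high class as a list (below), and in 2 of 7 B and plasma cell genes. Ube2l6 and Jchain had a window with no match, and Gbp9 and Lgr5 had no window. Ifit3b carried the same 94 letters as Ifit3 at its own position, and these near-identical neighbours may share hybridisation, so the value of Ifit3b is uncertain as a measurement apart from Ifit3.

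The scores of the high class ran from 0.21 in combination tumour 4 to 1.40 in BMS754807 tumour 6, and those of the low class from -0.19 in hydroxychloroquine tumour 6 to -1.02 in hydroxychloroquine tumour 5. BMS754807 tumour 6 stood far above the next tumour, control 3 at 0.69. The ranks had no gap at either edge: the last high tumour scored 0.209 and the first one outside 0.187, and at the lower edge the values were -0.168 outside and -0.186 inside. The high class held 4 control, 3 BMS754807, 0 hydroxychloroquine and 1 combination tumour, and the low class held 0, 1, 4 and 3 of them. Group scores overlapped widely, from 0.0006 to 0.69 in control, -0.45 to 1.40 with BMS754807, -1.02 to 0.12 with hydroxychloroquine and -0.71 to 0.21 with the combination.

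**Figure D1:**
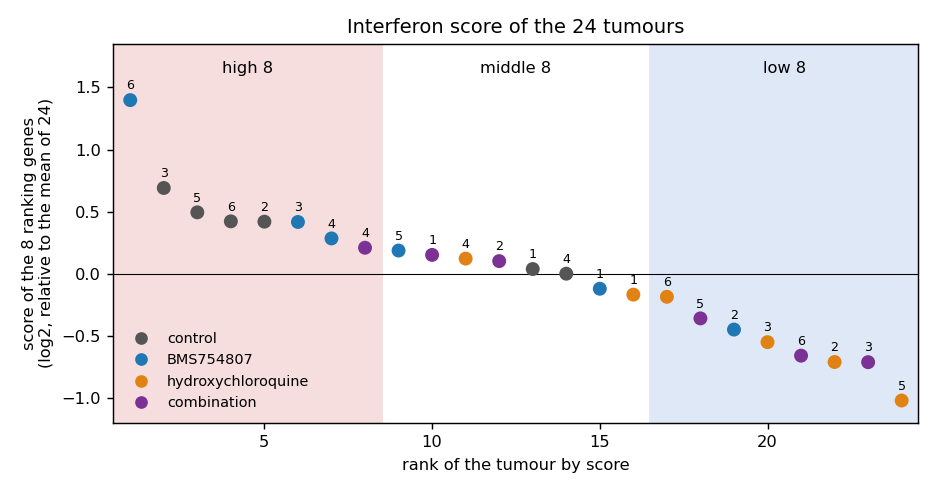
Score of the 8 ranking genes (y axis, log2 relative to the mean of 24 tumours) for each tumour in rank order (x axis), coloured by treatment, with the tumour's number above each point. BMS754807 tumour 6 stands alone at 1.40, and the other 23 tumours fall without a gap at the edges of the 2 shaded classes.

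Among the ranking genes, Irf7, the factor that amplifies type I interferon production, ran from 7.02 to 8.87 in the high class and from 5.12 to 6.39 in the low class. It was the 1 ranking gene whose classes did not overlap. Ifit3, which binds other antiviral proteins, lay at 8.80 to 10.65 against 7.09 to 8.93, and Isg15, a ubiquitin-like modifier, at 4.16 to 5.88 against 3.37 to 4.27. Of the 8 genes, 6 had a mean below the median of every array, so much of the ranking rests on genes in the lower part of the signal range. Not every tumour was high in all of them: BMS754807 tumour 6, highest in the score, had the lowest Oasl1 of its class (5.46), while combination tumour 6 of the low class had 6.32.

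With treatment in the model, a group informs the difference only if it holds both classes. The control group had no low tumour and the hydroxychloroquine group no high one. The fitted difference therefore was the average of a difference within BMS754807 (tumours 3, 4 and 6 high, tumour 2 low) and one within the combination (tumour 4 high, tumours 3, 5 and 6 low). These 8 tumours gave the difference, and the other 8 added only to the estimate of spread. Each of these within-group differences sets 3 tumours against a lone one, so BMS754807 tumour 2 and combination tumour 4 carry much of every value below. Leaving out the former leaves the within-combination value, and leaving out the latter the within-BMS754807 value. The score itself differed by 1.15 within BMS754807 and by 0.79 within the combination.

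In limma's test 0 of 19497 genes (0%) passed an adjusted p of 0.05, and the smallest adjusted p was 0.424, of Cxcl10. At an unadjusted p under 0.05 there were 780 genes (4.00% of those tested), 329 of them higher in the high class (1.69%) and 451 lower (2.31%). The difference was above 0 in 47.8% of all genes, and above 0 within both treatment groups in 21.8%, with a median of -0.013 log2. Counts in gene lists below are set against these shares. As the classes were picked on interferon-stimulated genes, other genes of that kind could be expected to lie higher, and their counts are no independent support for the ranking.

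Cxcl10, a chemokine that draws activated T and NK cells through Cxcr3, gave the smallest p of all genes. In the high class its lowest, median and highest values were 6.43, 6.83 and 7.74, and in the low class 5.44, 5.86 and 6.12. Every high tumour thus lay above every low tumour, although the tumours between the classes spanned 5.41 to 6.53. The difference was 1.48 ± 0.24 log2 (SE; fitted over 16 tumours, of which the 8 of BMS754807 and the combination give the difference), 1.70 within BMS754807 and 1.26 within the combination. It did not pass (limma, adjusted p = 0.424), and without the treatment term it was 1.12 (adjusted p = 0.0331). In the value without the term treatment and class cannot be told apart.

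All 8 high tumours lay above all 8 low tumours in 5 genes (0.0256% of those tested), Cxcl10, Stat2, Ube2l6, Gbp9 and Jchain, and below them in 3 (0.0154%), Lgr5, Cep89 and BC051019. These ranges are of values with no treatment term. The high class held 4 control and 0 hydroxychloroquine tumours and the low class 0 and 4, so treatment and class cannot be told apart in them. Stat2, the partner of Irf9 in type I signalling, ran from 9.65 to 10.70 in the high class and from 9.06 to 9.63 in the low class. BMS754807 tumour 2, of the low class, had 9.61, just under the high tumours. The Stat2 difference was 0.47 ± 0.26 (limma, adjusted p = 1), and nearly alike within BMS754807 (0.44) and the combination (0.49). Ube2l6, the enzyme that hands Isg15 to its targets, lay at 7.88 to 9.42 against 7.28 to 7.87. Its difference of 0.65 ± 0.34 was 1.12 within BMS754807 and 0.19 within the combination. Gbp9, a guanylate-binding protein, was at 6.57 to 8.46 against 6.00 to 6.54, with a difference of 0.70 ± 0.45.

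Jchain, which links antibody monomers into polymers, lay at 3.03 to 3.84 against 1.98 to 2.90, with a difference of 1.07 ± 0.27. These values fall near or below the lower quartile of the arrays (3.56 to 3.77), where signal is close to the bottom of the scale. On the other side stood Lgr5, the R-spondin receptor known from epithelial stem cells. Its high tumours lay between 9.28 and 10.14 and its low tumours between 10.43 and 10.94, and the middle tumours reached from 9.35 to 11.38. With treatment in the model the Lgr5 difference was -0.68 ± 0.20 (limma, adjusted p = 0.929), and without it -0.86 (adjusted p = 0.0331). All low hydroxychloroquine tumours had Lgr5 of at least 10.50 and all high control tumours at most 10.09, so in the value without the term treatment and class cannot be told apart.

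Of 17 measured interferon genes, 5 lay higher in the high class, against 47.8% of all genes, with a median difference of -0.13. This split by treatment group: 3 of 17 lay higher within BMS754807, against the lone tumour 2 (median -0.35), and 9 of 17 within the combination (median 0.050). Ifnb1, the interferon beta gene, ran from 2.34 to 3.16 in the high class and from 2.09 to 3.25 in the low class, with a difference of 0.01 ± 0.29. Ifng, which T and NK cells secrete, had a lowest, median and highest value of 2.73, 2.95 and 4.36 in the high class against 2.95, 3.63 and 4.03 in the low class. Its difference was -0.84 ± 0.37 (limma, unadjusted p = 0.040, adjusted p = 1), with -0.89 within BMS754807 and -0.80 within the combination. Control tumour 6, a high tumour with the highest Ifng at 4.36, went against this order, though its group does not enter the fitted difference. BMS754807 tumour 3, also high, had 3.81, above the low median. Hydroxychloroquine tumour 3, of the low class, had 2.95. Ifna6 was the other interferon gene under an unadjusted p of 0.05 (-0.65 ± 0.30). All these levels sit in the lowest part of the array's range (16 of 17 means below 6), where a difference is hard to measure.

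The receptor and signalling genes had differences near 0. Of 21 measured members 12 lay higher, against 47.8% of all genes, with a median difference of 0.015, and 0 reached an unadjusted p of 0.05. Ifnar1 ran from 11.42 to 11.88 in high and from 11.56 to 12.13 in low tumours, with a difference of 0.015 ± 0.18, and Ifnar2 differed by -0.14 ± 0.18. Irf9, which carries Stat2 to DNA, had 8.76 to 9.66 against 8.65 to 9.14, with a difference of 0.28 ± 0.18. Irf1, a factor induced by interferon gamma, differed by -0.11 ± 0.29, within BMS754807 by -0.45 and within the combination by 0.23. With the score of all 24 tumours as a continuous term, Stat2 gained 0.72 ± 0.12 log2 per unit of score (adjusted p = 0.0613) and Irf9 0.35 ± 0.092 (adjusted p = 0.357).

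Of 50 measured antiviral effector genes that were not in the ranking, 44 lay higher in the high class, against 47.8% of all genes. Within both treatment groups 30 lay higher, against 21.8% of all genes. The median difference of these antiviral genes was 0.33, with 0.40 within BMS754807 and 0.20 within the combination. Under an unadjusted p of 0.05 were 6, all higher, against 1.69% of all genes higher at that p, and 0 passed the adjusted test. Ifit3b, of the same RNA-binding family as Ifit3, ran from 8.47 to 10.25 in the high class and from 6.34 to 8.71 in the low class, with a difference of 1.73 ± 0.50 (limma, adjusted p = 0.929). It lay higher by 1.20 within BMS754807 and 2.26 within the combination. Sp110, a nuclear body protein, differed by 1.68 ± 0.51, from 3.95 to 6.02 against 3.37 to 5.54. Its classes overlapped, since control tumour 2 had 3.95 and combination tumour 3 of the low class 5.54. Xaf1, which promotes apoptosis, differed by 1.06 ± 0.45 and Slfn8, of the Schlafen family, by 0.75 ± 0.31. The class scores of this list still overlapped, from -0.13 to 0.79 in high and from -0.40 to -0.025 in low tumours.

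The guanylate-binding proteins and immunity-related GTPases, which attack the membranes around intracellular pathogens, had the highest median of the lists in this fit, though not in every alternative. Other lists lay above them in several alternatives, for example MHC class II genes with low-signal genes left out (0.91 against 0.89). Without BMS754807 tumour 2, skeletal muscle (2.15), HIN-200 (1.21), B and plasma cell (1.16) and MHC class II genes (0.98) did so, against 0.88. With the score centred on each treatment group, HIN-200 (0.77), leukocyte (0.70) and B and plasma cell genes (0.48) did, against 0.33. In that setting MHC class II (0.41), chemokine (0.39) and MHC class I genes (0.36) also lay above the GTPases. With the leukocyte covariate B and plasma cell genes did (0.76 against 0.53). In median slope on the continuous score adipocyte (1.05), HIN-200 (0.80), leukocyte (0.79), MHC class II (0.66) and macrophage genes (0.65) did, against 0.64. All 12 measured of 18 GTPase members lay higher within both treatment groups, against 21.8% of all genes. The median difference was 0.93, and 0.88 within each group. An unadjusted p under 0.05 was reached by 4 members, against 1.69% of all genes higher at that p. Gbp7 ran from 8.92 to 10.31 in the high class and from 8.14 to 9.40 in the low class, a difference of 1.11 ± 0.37. Gbp3 differed by 1.14 ± 0.45 and Gbp4 by 1.32 ± 0.57. Tgtp2, an immunity-related GTPase first known from T cells, had the widest spread. Its high tumours lay between 6.66 and 10.20 and its low tumours between 5.57 and 9.62, with a difference of 2.32 ± 0.91 (limma, adjusted p = 1). Combination tumour 6 held that value of 9.62 and went against its class, and the other 7 low tumours did not exceed 6.68. The same tumour gave a list score of 0.54 for these GTPases, above 4 of the 8 high tumours, though its ranking score was -0.66.

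The HIN-200 genes, which include sensors of double-stranded DNA, lay higher in 8 of 8 measured members, against 47.8% of all genes. Their median difference was 0.62, but it was 0.092 within BMS754807 and 1.21 within the combination. Ifi213 had the lowest p among them, with 5.78 to 9.14 against 5.49 to 6.67 and a difference of 1.66 ± 0.73. Within BMS754807 it differed by 0.37 and within the combination by 2.95. The other nucleic acid sensors and adaptors lay higher in 13 of 17 members, against 47.8% of all genes, with a median of 0.19. Ticam1, the adaptor of Tlr3, was the 1 member under an unadjusted p of 0.05 (0.42 ± 0.17). Ddx58, the RNA sensor RIG-I, differed by 0.47 ± 0.23. The endosomal receptors that hydroxychloroquine is known to affect gave mixed values: Tlr7 differed by 0.19 ± 0.77 and Tlr9 by 0.31 ± 0.41, both lower in the high class within BMS754807 (-0.30 and -0.59) and higher within the combination (0.68 and 1.21).

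Antigen presentation genes lay mostly higher, against 47.8% of all genes. Among 15 MHC class I pathway genes 12 did, with a median of 0.27 that was 0.14 without BMS754807 tumour 6, 0.15 without combination tumour 3 and 0.41 without BMS754807 tumour 2. They were led by the immunoproteasome subunits Psmb8 (1.20 ± 0.68) and Psmb9 (1.05 ± 0.73). The class I heavy chain H2-K1 ran from 12.93 to 14.74 in the high class and from 12.73 to 14.20 in the low class. B2m, the light chain, differed by 0.14 ± 0.30. Of the MHC class II genes 7 of 7 measured lay higher, with a median of 0.87, and H2-DMa, which loads peptide, by 1.31 ± 0.58. Ciita, the master regulator of class II, differed by 0.87 ± 0.43, from 5.36 to 6.63 against 4.12 to 6.36. The T cell attracting chemokine Cxcl9 differed by 2.03 ± 1.17, but its classes overlapped, from 6.07 to 10.60 against 4.44 to 9.85. Of 12 chemokines 10 lay higher, against 47.8% of all genes. The chemokine median was 0.20 and ranged from 0.12 without combination tumour 3 to 0.61 without combination tumour 4.

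Checkpoint genes were mixed, with 8 of 11 higher, against 47.8% of all genes, and a median of 0.087. Cd274, which encodes the ligand PD-L1, lay between 6.81 and 8.37 in the high class and between 6.32 and 7.84 in the low class, a difference of 0.59 ± 0.35 (limma, adjusted p = 1). Lag3, an inhibitory receptor of T cells, was lower by -0.55 ± 0.20, with 4.97 to 6.15 against 5.31 to 6.12, and was the 1 checkpoint gene under an unadjusted p of 0.05. Of the other pathways an interferon signature is often read with, NF-kB targets had 9 of 15 members higher and a median of 0.025, and death receptor and apoptosis genes 9 of 14 and 0.028.

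**Figure D2:**
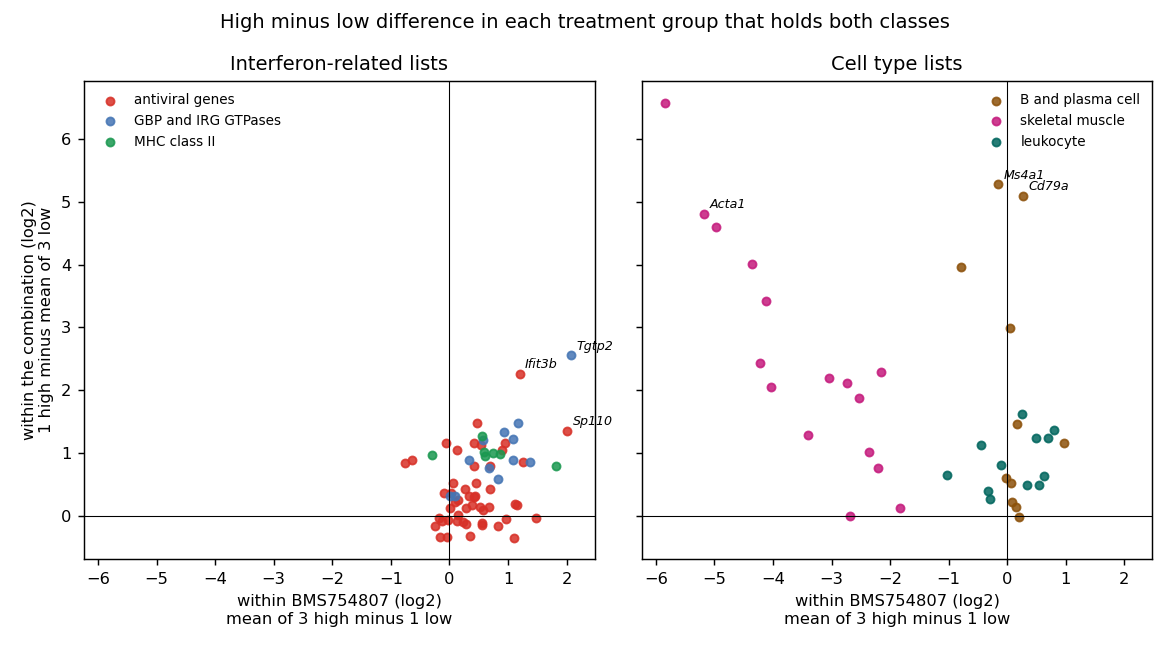
High minus low difference of each list member within BMS754807 (x axis, 3 tumours against 1, log2) and within the combination (y axis, 1 tumour against 3, log2); every point is a gene. All 12 GBP and IRG genes lie above 0 on both axes, whereas skeletal muscle genes lie below 0 on the x axis and mostly above 0 on the y axis, and B cell genes reach 5.28 on the y axis alone.

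Markers of several immune cell types lay higher in the high class. Their counts stand beside a share of 47.8% higher among all genes. In bulk tumours fewer cells of a type and less RNA per cell cannot be told apart, which holds for every marker below. Pan-leukocyte markers lay higher in 10 of 12 members, with a median of 0.46, and their class scores overlapped, from -0.86 to 1.12 in high and from -0.83 to -0.14 in low tumours. The leukocyte median was 0.21 without BMS754807 tumour 6 and 0.73 without tumour 2 or tumour 3 of that group. Ptprc, which encodes CD45, ran from 8.57 to 11.03 against 8.69 to 10.06, with a difference of 0.94 ± 0.59. With the leukocyte score added as a covariate the median of the antiviral genes was 0.23, that of the GTPases 0.53, that of MHC class II genes 0.36, that of MHC class I genes 0.055 and that of chemokines -0.018. Macrophage markers lay higher in 12 of 14 members with a median of 0.12, NK and cytotoxic markers in 9 of 11 with 0.38, and T cell markers in 7 of 10 with 0.20, which was -0.13 within BMS754807 and 0.53 within the combination. Neutrophil markers lay higher in 6 of 12 with a median of 0.019, and inflammatory monocyte markers in 4 of 7 with 0.13. Among plasmacytoid dendritic cell markers, whose cells are known as strong producers of type I interferon, Siglech differed by 0.25 ± 0.34 and had a level between 3.19 and 4.74 in all 24 tumours. Of these plasmacytoid markers 7 of 9 measured lay higher, with a median of 0.19. The part of plasmacytoid cells in the interferon differences was not tested, as the leukocyte covariate was made of pan-leukocyte markers.

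Epithelial markers had a median difference of 0.099 and fibroblast markers of 0.30, with 11 of 16 and 13 of 16 members higher. Among all genes 47.8% lay higher. Epcam differed by -0.072 ± 0.91, with 10.68 to 14.74 in the high class and 13.12 to 14.89 in the low class. On the continuous score, by contrast, 13 of 16 epithelial genes had a slope below 0 with a median of -0.48, and Epcam lost 1.14 ± 0.53 per unit of score (unadjusted p = 0.042, adjusted p = 0.589). BMS754807 tumour 6 and control tumour 5, both high, had epithelial scores of -1.0 and -0.88, leukocyte scores of 1.12 and 0.97 and skeletal muscle scores of 2.38 and 3.32. Adipocyte markers showed the same split, with a median difference of -0.23 and a median slope of 1.05, and BMS754807 tumour 6 had the highest adipocyte score of all at 4.72.

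**Figure D3:**
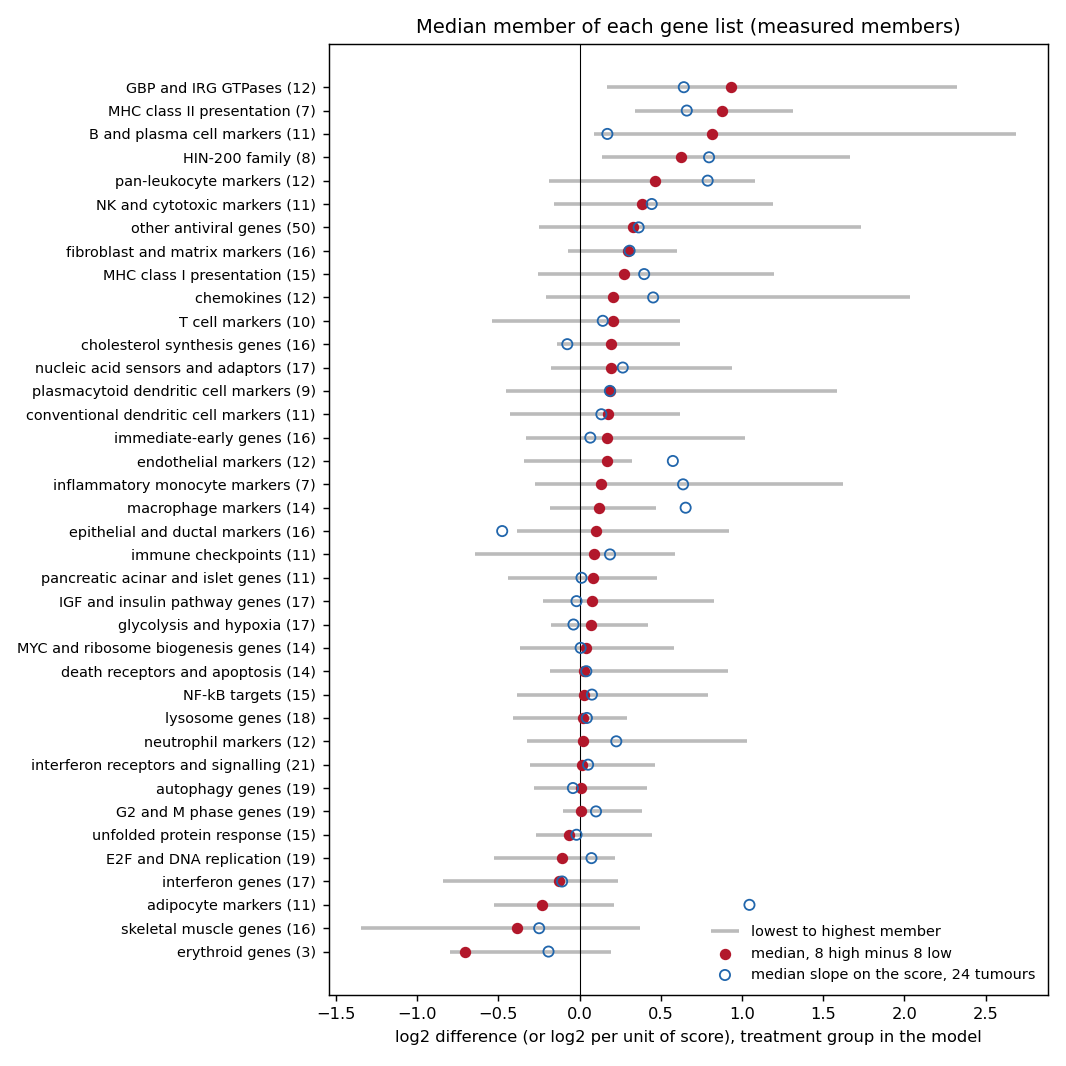
Median difference of each gene list between the classes (filled points), the range of its members (grey bars) and its median slope on the score of all 24 tumours (open points), in log2 on the x axis, with measured members in brackets. The GBP and IRG GTPases lead at 0.93 and interferon genes lie at -0.13, and the open and filled points part most for adipocyte markers, followed by B and plasma cell, epithelial and macrophage markers.

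The lone tumours of the comparison differed in tissue markers from most of the tumours they were set against. BMS754807 tumour 2, the 1 low tumour of its group, had a skeletal muscle score of 3.67. Of the high tumours it was set against, tumour 6 had 2.38, tumour 3 had -0.13 and tumour 4 had -1.67. Hydroxychloroquine tumour 5 (6.14) and combination tumour 1 (4.94) had higher scores, and control tumour 5 had 3.32. The contractile gene Acta1 differed by -5.18 within BMS754807 and by 4.81 within the combination. In BMS754807 it was 14.12 in tumour 2, 13.93 in tumour 6, 7.86 in tumour 3 and 5.04 in tumour 4. The muscle list median was -3.22 within BMS754807 and 2.15 within the combination, and the fitted list median was -0.39. Combination tumour 4, the 1 high tumour of its group, had a B and plasma cell score of 1.50, while the next high tumour had 0.15. In the middle class hydroxychloroquine tumour 1 (3.01) and BMS754807 tumour 5 (1.96) scored higher still. The list median was 0.81, with 11 of 11 members higher, against 47.8% of all genes. That median was 0.087 within BMS754807 and 1.16 within the combination. The surface antigens Cd79a and Ms4a1 of B cells differed by 5.10 and 5.28 within the combination and by 0.27 and -0.16 within BMS754807. Without combination tumour 4 the B cell median was 0.087, and 10 of the 11 members had a mean level below 6.

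A test of the difference between these within-group values, chosen after the data were seen, called 7 genes (0.0359% of those tested). Ucp1, the uncoupling protein of brown fat, was lower by -5.75 in the high tumours within BMS754807 and by -0.063 within the combination, a gap of 5.69 ± 0.40 (limma, adjusted p = 2.9e-05). The epidermal genes Krt77 and Hrnr, the lymph node vessel mucin Glycam1 and Cd79a had gaps of 3.49, 2.77, 3.03 and 4.83, with Ly6d (4.17) and Thegl (3.03) completing the set. Each of these gaps rests on a single tumour on one side. Without BMS754807 tumour 2 the comparison reduces to combination tumour 4 against 3 low tumours, and 23 genes (0.118%) passed, all higher. They included the B cell genes Cd79a, Cd79b, Ms4a1, Pax5, Cd22 and Tnfrsf13c and the epidermal genes Krt5, Krt10, Krt77, Krtdap and Hrnr, and 0 of the interferon-related genes described above. The spread of that lone tumour was assumed to equal that of the other groups.

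**Figure D4:**
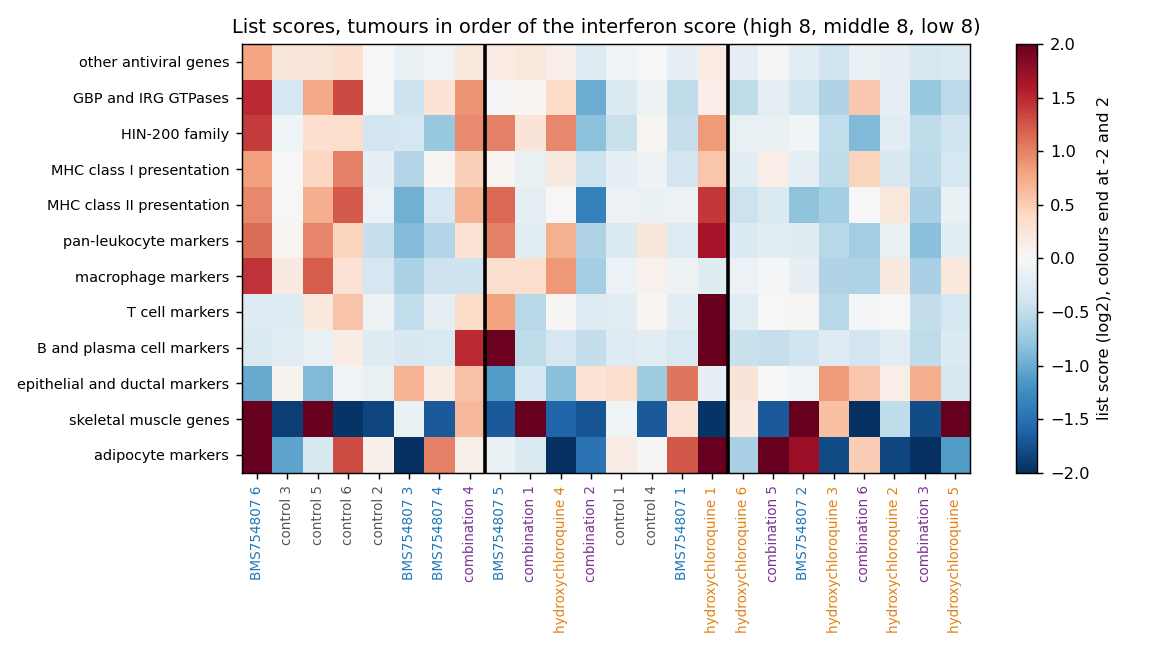
List scores (colour, log2 relative to the mean of 24 tumours, colours ending at -2 and 2) of interferon-related lists and cell type lists (rows) in the 24 tumours in order of the interferon score (columns, labels coloured by treatment). BMS754807 tumour 6 is high in antiviral, GTPase, leukocyte, macrophage, muscle and adipocyte lists, and combination tumour 4 is high for B and plasma cell markers (1.50).

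The leading genes by p on either side, of which 0 passed, were mostly of low signal. Higher in the high class after Cxcl10 came Strc, Alox12e, Dnase1l3, Gnat2, Spic and Rnase6. Spic, a transcription factor of iron-recycling macrophages, ran from 3.46 to 5.20 against 3.06 to 4.06, a difference of 1.55 ± 0.36 (limma, adjusted p = 0.779). Rnase6, an antimicrobial ribonuclease of myeloid cells, had 8.18 to 9.73 against 7.74 to 9.25 and differed by 1.30 ± 0.31. Dnase1l3, a secreted enzyme that digests extracellular DNA, differed by 1.59 ± 0.34, by 1.80 within BMS754807 and 1.38 within the combination. Its high tumours lay between 4.98 and 6.48, and the low tumours between 3.25 and 5.67. Strc, known from the inner ear, and Gnat2, the cone transducin, differed by 0.92 ± 0.18 and 1.18 ± 0.26. Alox12e, an epidermal lipoxygenase, differed by 1.29 ± 0.27, but combination tumour 4 alone reached 4.60 while the other 7 high tumours stopped at 3.18. It was among the 23 genes that passed without BMS754807 tumour 2 (2.01 ± 0.28; limma, adjusted p = 0.0108).

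Lower in the high class were Rhag, Ing5, Adam30, Otog, Nek11 and Trmo. Ing5, a reader of histone methylation, was the 1 of them well inside the signal range, with 8.97 to 9.50 against 9.32 to 10.10 and a difference of -0.75 ± 0.15 (limma, adjusted p = 0.650). It was alike within BMS754807 (-0.80) and the combination (-0.69). The red cell ammonia channel Rhag (-0.93 ± 0.19), the inner ear protein Otog (-1.38 ± 0.30) and the kinase Nek11 (-0.79 ± 0.17) had their highest low value in BMS754807 tumour 2, at 4.63, 5.08 and 4.20. Adam30, of a protease family, differed by -1.17 ± 0.25 and Trmo, a tRNA methyltransferase, by -0.70 ± 0.16. The same tumour also held the highest low value of Ing5 (10.10), Adam30 (4.47) and Trmo (4.53), so in all 6 genes the lone low tumour of its group was the highest of its class.

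In the target genes of BMS754807 and in the autophagy genes Map1lc3b and Sqstm1 the classes overlapped. Igf1r ran from 11.26 to 11.96 against 11.40 to 12.08 (difference -0.11 ± 0.24), and Insr from 13.09 to 13.45 against 13.28 to 13.73 (-0.072 ± 0.15). Map1lc3b and Sqstm1 differed by 0.030 ± 0.16 and -0.035 ± 0.22. Of 19 autophagy genes 10 lay higher, with a median of 0.010, and of 17 IGF and insulin pathway genes 9, with 0.075. Of 18 lysosome genes 10 lay higher, with a median of 0.022. Among all genes 47.8% lay higher. Mki67, a marker of dividing cells, ran from 14.41 to 15.50 against 14.65 to 15.39 and differed by -0.012 ± 0.24. Some growth-related lists had opposite signs in the 2 treatment groups, and others did not. Cholesterol synthesis genes had a median of 0.80 within BMS754807 and -0.39 within the combination, and E2F and DNA replication genes 0.15 and -0.34. G2 and M phase genes had 0.17 and -0.18, whereas MYC and ribosome biogenesis genes had 0.0017 and 0.083 and IGF and insulin pathway genes 0.097 and 0.020.

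With the score of all 24 tumours as a continuous term, which uses every treatment group, 0 genes (0%) passed in limma. Unadjusted p under 0.05 was reached by 868 genes with a positive slope (4.45%) and 772 with a negative one (3.96%), and 46.3% of all slopes were above 0. The 5 genes with the smallest adjusted p, 0.0613 each, were Slfn8, Stat2, Oas3, Ifit3b and Ube2l6, all interferon-stimulated. Without BMS754807 tumour 6, the tumour with the highest score, the smallest adjusted p was 0.360, and 401 positive and 442 negative slopes had an unadjusted p under 0.05. Slfn8 gained 0.94 ± 0.16 log2 per unit of score, Ube2l6 0.91 ± 0.17 and Ifit3b 1.42 ± 0.26. Of the 50 antiviral genes 45 had a positive slope, 22 of them with an unadjusted p under 0.05, and 12 had one without BMS754807 tumour 6. The GTPases had 12 of 12 positive slopes, 7 under 0.05 and 2 without that tumour. Pan-leukocyte markers had 12 of 12, 9 under 0.05 and 3 without it. The same tumours set the score and these slopes, so the slopes describe which genes go with it.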

How the data were processed

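Per the submitters' processing notes, the authors processed the arrays with Transcriptome Analysis Console 4.0. The deposited values were used as log2 signal, and the log base was inferred from their range (1.45 to 19.0). Background correction and normalization are not given in the sources used here. Of 22206 probe sets, 19572 had 1 gene symbol. The probe set with the highest mean was kept per gene, leaving 19505 genes.

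Tumours were grouped by their titles. The classes and treatment group were fitted with limma 3.58.1 in R 4.3.3 (lmFit, eBayes) to 16 tumours, two-sided, with Benjamini-Hochberg adjustment over 19497 genes and a threshold of 0.05. For a list score, each member's distance from its own mean in all tumours was averaged. The procedure was tested on simulated data. The number of arrays limits the precision. Replicate numbers gave no pairing.

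The classes, the 38 gene lists and the tests were chosen with earlier results of these data known. As no gene passed, the named genes were the 6 with the smallest p in each direction, the 6 with the smallest p outside every list (clone, predicted, olfactory and receptor segment genes passed over), and a fixed set of interferon, target and marker genes. Other genes were named after their values were seen.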

Additional observations from a re-analysis of the deposited data

Results flagged for a closer look

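Among 82 sets of 8 values examined, 8 held a tumour far from the other 7, where chance flags about 1 set in 20. That rate does not hold for the score, which picked the classes, or for genes named for their small p, so these are given as values. The score of BMS754807 tumour 6 was 1.40, and the next high tumour had 0.69. Combination tumour 6 stood above the other low tumours in the GTPase list score (0.54), and combination tumour 4 above the other high tumours in the B and plasma cell score (1.50) and in Alox12e (4.60). Hydroxychloroquine tumour 3 had the highest Alox12e of the low class (3.44). BMS754807 tumour 2 had the highest low-class values of Rhag (4.63), Otog (5.08) and Nek11 (4.20).

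The high minus low difference was not alike in the combination and in BMS754807 by limma's test of that gap, with 1 lone tumour on one side of each difference, whose spread was taken from the other tumours. The gap, combination minus BMS754807, was 5.69 in Ucp1, where the difference was -5.75 in BMS754807 and -0.063 in the combination. It was 3.49 in Krt77, 2.77 in Hrnr, 4.17 in Ly6d, 3.03 in Glycam1, 3.03 in Thegl and 4.83 in Cd79a.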

How the results depend on the processing

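Correlations gave no ground for a paired analysis: same-numbered tumours had a median of -0.0075 (36 pairs) against 0.0042 for other numbers. The replicate block called 0 genes, as did the main fit, so that count does not bear on pairing. The count of genes passing was 0 in every alternative except 1 with 6 against 6 tumours (Ucp1), 2 with no treatment term (Cxcl10, Lgr5), 1 with the leukocyte covariate (Krt13), 2 with the continuous score and the leukocyte covariate (Ifit3b, Mark2) and 1 with the continuous score and the replicate block (Ifit3b). Leaving out each tumour gave 0 to 23 genes, with 23 without BMS754807 tumour 2 and 1, Ucp1, without combination tumour 4. The median of the antiviral genes stayed above 0 in all alternatives (0.18 to 0.51), as did those of the GTPases (0.28 to 1.21), MHC class I (0.055 to 0.41) and HIN-200 genes (0.092 to 1.21); those of MHC class II (-0.17), chemokines (-0.018), leukocyte (-0.0087) and B cell genes (-0.43) each passed below 0 in 1 alternative. Continuous fits without BMS754807 tumour 6, with the leukocyte covariate or with the block were added after the data were seen. The named genes below changed sign, none of them past the threshold, and the cause was not tested. With the score centred on each treatment group, the values were Trmo 0.0184, Ifnar1 -0.0134, Ifnar2 0.12, Ifnb1 -0.0929, Irf1 0.16, Mki67 0.0246 and Map1lc3b -0.0327. With 6 against 6 tumours, the values were Ifnar1 -0.01, B2m -0.11, Tlr9 -0.43 and Mki67 0.17. With a score by the median of the ranking genes, the values were Ifnar1 -0.0235, Ifnar2 0.0498, Ifnb1 -0.0748, Irf1 0.11, Mki67 0.078, Map1lc3b -0.0426 and Sqstm1 0.0748. With no treatment term, the values were Ifnar1 -0.12, Ifnar2 0.0637, Irf1 0.0625 and Mki67 0.0937. With array weights, the values were Ifnar1 -0.0011, Tlr7 -0.13, Epcam 0.33 and Map1lc3b -0.0098. With the leukocyte score as a covariate, the values were Ifnar1 -0.0341, B2m -0.0689, Tlr7 -0.67, Epcam 0.80 and Mki67 0.0512. With the continuous score without BMS754807 tumour 6, the values were Ifnar1 -0.0183, Ifnar2 0.0603, Ifnb1 -0.0184, Irf1 0.084, Mki67 0.0992 and Map1lc3b -0.11. With the continuous score with the leukocyte covariate, the values were Ifnar1 -0.0004, Ifnar2 0.0063, B2m -0.0565, Tlr9 -0.16, Ptprc -0.13, Mki67 0.11 and Sqstm1 0.0748. With the score as a continuous term, the values were Ifnar2 0.15, Ifnb1 -0.0318, Irf1 0.15 and Mki67 0.048. With 12 against 12 tumours, the values were Ifnar2 0.0503, Ifnb1 -0.0173, Irf1 0.11, Map1lc3b -0.001 and Sqstm1 0.0617. With the continuous score with the replicate block, the values were Ifnar2 0.14, Ifnb1 -0.0607, Irf1 0.10, Mki67 0.11, Map1lc3b -0.0004 and Sqstm1 0.0437. With the replicate block, the values were Ifnb1 -0.0846, B2m -0.0497, Mki67 0.30 and Sqstm1 0.18. With the muscle score as a covariate, the values were Ifnb1 -0.0362. With the epithelial score as a covariate, the values were Ifnb1 -0.0218. When tumours were left out in turn, values ranged for B2m from -0.13 to 0.41, Epcam from -0.43 to 0.52, Ifnar1 from -0.0476 to 0.07, Ifnb1 from -0.27 to 0.29, Igf1r from -0.52 to 0.30, Insr from -0.15 to 0.0067, Irf1 from -0.45 to 0.23, Map1lc3b from -0.0433 to 0.10, Mki67 from -0.20 to 0.18, Sqstm1 from -0.34 to 0.27, Tlr7 from -0.32 to 0.68 and Tlr9 from -0.59 to 1.21. With 8 tumours giving the difference and many named genes near the bottom of the array signal, small differences could not be resolved.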
